A study of Homo sapiens with 26 samples.

Results

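The genes described here lie side by side on human chromosome 8, from the start of HGSNAT at position 43140464 to the start of C8orf33 at position 145052467 (hg38), over 101.91 Mb. They were chosen because their RNA was lower in cells with the IGF2BP1 mutants S181E and Y396E than in cells with the wild-type protein, so the values that chose them are given as a description and not as a test. A member was a protein-coding gene that starts in this stretch, had a CPM value (counts scaled to a common library total) of over 10 in at least 12 of 24 libraries, and did not belong to the ribosomal, translation and respiratory gene families or the few single genes that were left out by name. This gave 186 members of 9099 protein-coding genes tested, beside 115 tested genes of chromosome 8 before the stretch and 8777 tested genes on other chromosomes. The question asked of them was which genes follow the lowered stretch and which escape it.

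The stretch begins with the last tested gene of the short arm, HGSNAT, and then holds the long arm of the chromosome. Its genes share no single function. They encode, among others, the DNA repair kinase PRKDC, the cohesin subunit RAD21, the 14-3-3 protein YWHAZ, the heat shock transcription factor HSF1 and stress-responsive genes such as KLF10, TRIB1 and ARC. IGF2BP1 itself is an RNA-binding protein that acts on the stability, translation and localization of its target mRNAs. Sodium arsenite causes oxidative stress, under which most translation stops and many mRNAs gather in stress granules.

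Poly(A) RNA from clarified lysates was sequenced in 26 libraries of HCT116, a line of human colorectal carcinoma that here carried Tet-OsTIR1. All but the parental cells lacked IGF2BP2 and IGF2BP3, knocked out with Cas9 through single-cell clones, and carried mCherry-IGF2BP1 on a lentivirus with the hPGK promoter, as wild type (WT), as S181E or Y396E, in which glutamate stands for a phosphorylated serine or tyrosine, or as RQ, in which arginines of the first disordered linker are replaced by glutamine. These 4 populations received PBS (control) or, for 2 h, 500 µM sodium arsenite, with 3 libraries each from separately plated dishes, which gave 8 groups of 3. Parental HCT116 cells, without transgene or knockout, gave 1 library per treatment. Each transgene was represented by 1 population of cells, sorted by mCherry level, so the mutation and the population that carries it cannot be told apart, and the p-values measure the spread between dishes.

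Total counts ranged from 22508145 to 50834401 per library, and protein-coding genes took 89.5% to 98.3% of them. Of the 7 colon epithelial markers 6 were expressed, EPCAM at 323 to 429 CPM, while VIL1 reached at most 0.225 CPM. The immune, endothelial and fibroblast markers reached at most 0.804 CPM, apart from COL1A1 at 6.89 to 11.9 CPM. IGF2BP1 had 9.22 to 14.0 CPM in WT control libraries, 17.6 to 21.1 in S181E and 14.9 to 17.9 in Y396E and 10.4 to 14.3 in RQ. In arsenite it had 28.3 to 30.9 CPM in WT, 44.9 to 46 in S181E, 43.6 to 46.1 in Y396E and 45.2 to 47.7 in RQ, and its part in the differences of the stretch was not tested. The library Y396E arsenite replicate 3 stood apart, since 13897 genes had counts in it and 20850 or more in each of the other 23 with a transgene.

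The members were lower in S181E and Y396E by a similar amount in every library. The median log2 change of the 186 members against WT was -0.61 for S181E control and -0.59 for Y396E control, beside -0.57 and -0.61 in arsenite. In control, tested genes of chromosome 8 before the stretch had medians of 0.12 and 0.11, and genes on other chromosomes 0.03 and 0.02. Taken library by library, the median over members lay between -0.61 and -0.60 in S181E control, between -0.61 and -0.59 in Y396E control, between -0.59 and -0.57 in S181E arsenite and between -0.63 and -0.57 in Y396E arsenite. The 6 RQ libraries lay between 0.01 and 0.04. The parental libraries lay at the WT level, with 0.01 in control and 0.00 in arsenite. In bulk RNA, less RNA per cell and fewer cells with the RNA cannot be told apart. The libraries measure RNA alone, and whether the populations differed in the DNA dosage of the stretch was not tested.

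Of the members, 182 lay below 0 in S181E control and 182 in Y396E control. The number past an adjusted p of 0.05 and a fold of 1.2 in edgeR's quasi-likelihood fit was 165 lower and 2 higher in S181E control, where 15.4% of all tested genes were lower, 15.7% higher and 31.1% either. It was 169 lower and 2 higher in Y396E control (14.2% of all genes lower, 14.5% higher and 28.6% either). In arsenite it was 173 and 1 in S181E (8.42%, 5.32% and 13.7%) and 168 and 1 in Y396E (11.9%, 9.77% and 21.7%). These counts describe the contrasts that the stretch was chosen on. Without Y396E arsenite replicate 3, the median in Y396E arsenite was -0.59.

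**Figure D1:**
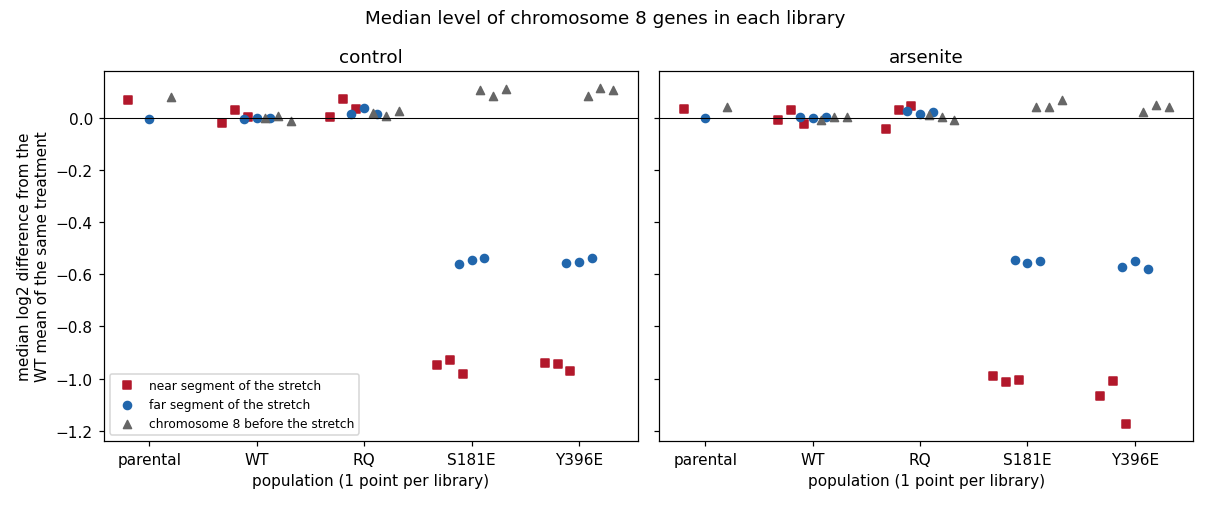
Median log2 difference from the WT mean of the same treatment (vertical axis) in each of the 26 libraries, by population (horizontal axis), with control on the left and arsenite on the right. Squares are the 24 members nearest the start of the stretch, circles the other 162 members and triangles the tested genes of chromosome 8 before the stretch; S181E and Y396E libraries stand below the others for both groups of members and not for the triangles.

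In control cells the first member was lowered and its neighbours before the stretch were not, as the choice of the border required. POMK, a kinase of dystroglycan glycosylation that starts at 43093498, was the last tested gene before the stretch, with 69.0 ± 4.03 CPM in WT control libraries (SD, n = 3), 66.0 ± 1.15 in S181E and 62.4 ± 2.72 in Y396E. This is a log2 change of -0.06 ± 0.08 (SE) in S181E and of -0.14 ± 0.08 in the other mutant. The genes ahead of it, THAP1, HOOK3 and FNTA, had log2 changes between -0.16 and 0.25 in both mutants.

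HGSNAT, the lysosomal acetyltransferase that is the first member, had 26.2, 32.2 and 29.7 CPM in the WT control libraries, 17.6, 18.6 and 17.7 in S181E and 18.9, 20.0 and 19.3 in Y396E. The mutant libraries did not overlap those of WT, and the parental library had 26. The log2 changes of S181E and Y396E were -0.71 ± 0.12 and -0.60 ± 0.13. In arsenite they were -0.43 ± 0.13 and -0.37 ± 0.13, smaller than the median of the members next to it, and the Y396E libraries (11.6, 13.3 and 18.2 CPM) overlapped those of WT (20.4, 19.7 and 15.9). The overlap came from the Y396E library that stood apart, with 18.2 CPM, while the others lay below WT.

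The next member, SPIDR, a scaffold of homologous recombination, lies beyond the centromere. The log2 changes of S181E and Y396E were -0.90 ± 0.07 and -0.94 ± 0.07. PRKDC, the catalytic subunit of the DNA-dependent protein kinase, had 69.4, 70.8 and 64.4 CPM in WT control, 33.5, 34.3 and 34.3 in S181E and 31.7, 34.9 and 30.2 in Y396E. At the far end, the last member, C8orf33, had 155 ± 2.71 CPM in WT control, 115 ± 5.12 in S181E and 109 ± 4.51 in Y396E.

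The stretch was not lowered evenly. A least-squares split over gene order, made after the values were seen, put a step between PDE7A and VCPIP1, which start at 65714334 and 66628487. The 24 members before the step had a median log2 change of -0.93 over both mutants in control cells, and the 162 members after it -0.55. In the arsenite libraries, which the control split did not use, the same procedure put the step 1 gene later, between VCPIP1 and COPS5, with medians of -1.04 and -0.56.

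Both levels were seen in every S181E and Y396E library. The step was placed on the control libraries themselves, so their values only describe it. The arsenite libraries did not enter that placement, but they came from the same populations, and their contrasts also served to choose the stretch. A least-squares split returns a step for any values, so the step in arsenite is not independent support. The median of the 24 near members lay between -0.98 and -0.93 in the S181E control libraries and between -1.17 and -1.01 in the Y396E arsenite libraries, the widest range of the mutant groups. The median of the 162 far members lay between -0.58 and -0.54 in all 12 libraries with S181E or Y396E. In the parental libraries the near members had medians of 0.07 in control and 0.03 in arsenite, and in the RQ libraries between -0.04 and 0.07. Over all alternative settings of the processing, the near median in S181E control lay between -0.99 and -0.78 and the far median between -0.58 and -0.40.

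The near segment held some of the most lowered members. RB1CC1, a scaffold that starts autophagy, had 23.3, 24.3 and 23.6 CPM in WT control against 9.28, 11.5 and 10.1 in S181E and 8.91, 11.2 and 9.27 in Y396E. RAB2A, a small GTPase of the secretory pathway chosen as an example after its values were seen, had 88.1, 89.6 and 94.9 CPM in WT control, 40.1, 42.2 and 39.9 in S181E and 38.9, 42.4 and 43.1 in Y396E. In both genes every mutant library lay far below WT, with no overlap. CEBPD, a transcription factor of acute responses, and UBXN2B, an adaptor of the AAA ATPase p97, had mean log2 changes of -1.34 and -1.22.

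Along the far segment the level varied with position. Counted in steps of 10 Mb from the first member, the median log2 change of far members in control cells was -0.44 over the 7 between 20 and 30 Mb, between -0.54 and -0.41 from 30 to 90 Mb, and -0.52 from 90 to 100 Mb. The last stretch, beyond 100 Mb, held 46 members with a median of -0.71 in control cells, 45 of which were lowered past a fold of 1.2 in both mutants. In arsenite the S181E and Y396E medians there were -0.60 and -0.58. In the same last steps the RQ median was -0.00 in control cells.

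**Figure D2:**
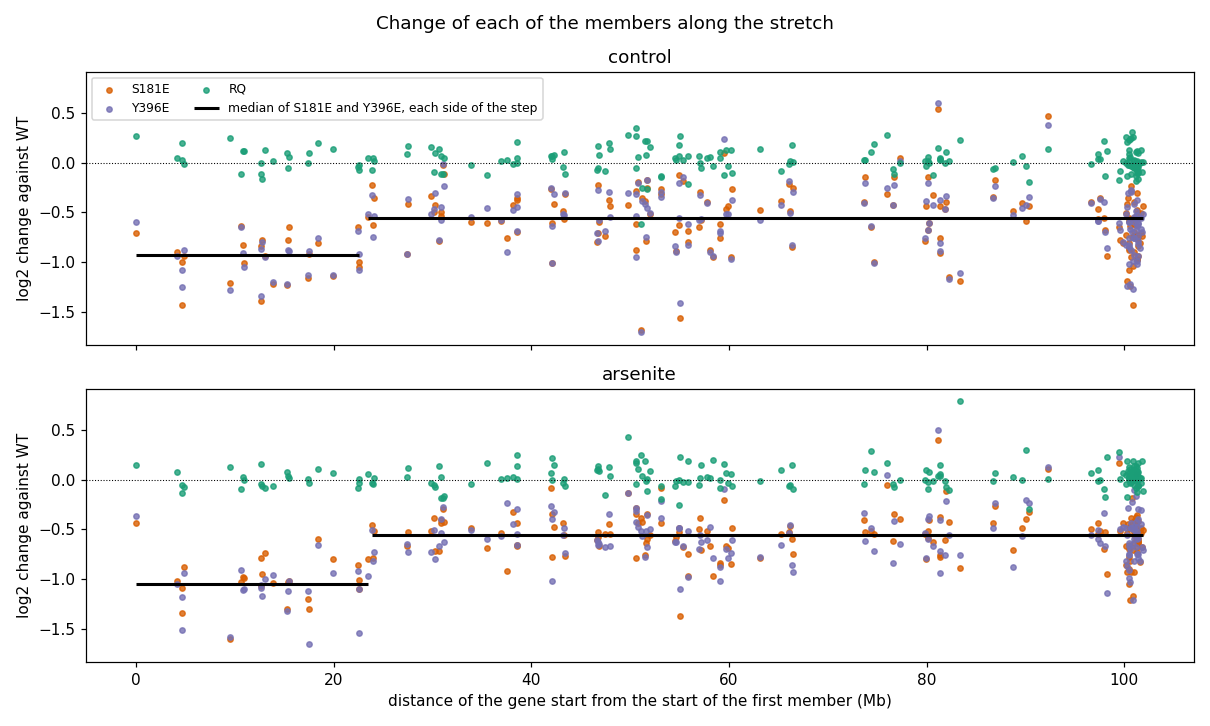
Log2 change against WT (vertical axis) of each of the 186 members by the distance of its start from that of the first member (horizontal axis, Mb), in control (top) and arsenite (bottom). Points are S181E, Y396E and RQ, and black lines give the medians of S181E and Y396E on each side of the step, -0.93 and -0.55 in control and -1.04 and -0.56 in arsenite; RQ points scatter around 0.

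The level cut kept other genes of the stretch from being members. Of the protein-coding genes that start in the stretch, 207 passed the level cut, and 21 of these were left out by name. Of the 212 others that did not pass it, 17 had more than 10 CPM in at least 1 library, and their medians in S181E and Y396E control were -0.69 and -0.61. The 7 genes of other types that passed the cut had medians of -0.65 and -0.70. WT and RQ together supply 12 libraries, so a gene could enter through them alone, as E2F5 and NIPAL2 did. The cut favoured high values in the WT libraries of these genes. Another 5 members, RAD54B, OSR2, GRHL2, MTBP and ZNF251, entered through the 12 arsenite libraries alone, and 0 through the control libraries alone. Just inside the cut, with 12 libraries, lay NIPAL2, E2F5, GRHL2, OSR2, ZNF251, RAD54B and MTBP, with log2 changes in S181E control from -1.56 to 0.05. With 13 libraries lay ZC2HC1A, TBC1D31 and KHDRBS3, at -0.60, -0.44 and 0.47. Just outside the cut lay NCOA2 and ZBTB10 with 11 libraries, at -0.66 and -0.46.

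A member was said to follow the stretch when its log2 change was at or below -0.263, a fold of 1.2, in both mutants, and to escape it when it was above that value in both. In control cells 164 members followed (88.2%), 16 escaped (8.6%) and 6 were mixed. Of all tested genes 13.4% met the rule for following. In arsenite 168 members followed, where 7.41% of all genes did, 9 escaped and 9 were mixed, or 173, 9 and 4 without Y396E arsenite replicate 3. Genes on other chromosomes lay as far above their own median as the escaping members above theirs in 6.48% of cases in control cells, beside 8.6% of members, and in 2.99% in arsenite, beside 4.84% of members.

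The escaping members in control cells were JPH1, GDAP1, LRRCC1, PDP1, CCNE2, POP1, STK3, KLF10, NUDCD1, RAD21, DSCC1, MTBP, ATAD2, TMEM65, ASAP1 and KHDRBS3. All lay in the far segment, which held 162 of the 186 members, between 31.1 and 92.3 Mb from the first member. The near segment had a median of -0.93 in control cells and the far segment -0.55. A near member thus had to lie further above its segment to escape, so the place of the escaping members depends on the cut and the split. Compared with following members they had a lower median WT level, 22.5 against 53.9 CPM, a lower median GC content, 39.7% against 43.1%, and a longer median exon length, 4320 against 3900 bases. Over all members the change in control cells correlated weakly with GC content (Pearson's r = -0.20 over 186 genes of the same libraries), and r was -0.12 over genes off chromosome 8. Over the members r was -0.059 with the log of WT control CPM and 0.025 with the log of exon length. The differences between the classes were not tested.

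TMEM65, a protein of the mitochondrial inner membrane, was the member that stood highest. It had 15.1, 15.7 and 16.0 CPM in WT control, 22.6, 21.2 and 24.2 in S181E and 23.3, 24 and 23.7 in Y396E. Every mutant library lay above every WT library, and the log2 changes of S181E and Y396E were 0.54 ± 0.10 and 0.60 ± 0.10. The parental control library had 23.5 CPM, at the level of the mutants. In arsenite the WT libraries had 10.9, 12.5 and 12.4 CPM, S181E 15.0, 17.5 and 14.9, and Y396E 14.0, 17.3 and 19.3.

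KHDRBS3, a regulator of splicing related to SAM68, was the other member above WT by more than a fold of 1.2 in both mutants. It had 7.91, 6.33 and 7.80 CPM in WT control, 10.4, 9.37 and 10.8 in S181E and 8.84, 9.55 and 10.3 in Y396E. The parental library, with 16.7 CPM, lay above all of these. KHDRBS3 had over 10 CPM in 13 libraries, none of them WT control, so the level cut favoured high values in its mutant libraries. In arsenite the WT libraries had 9.61, 11.6 and 10.2 CPM and overlapped with those of S181E, 10.7 to 11.8, and Y396E, 10.5 to 12.6.

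KLF10, a transcription factor induced early by TGF-β, had 154, 145 and 156 CPM in WT control, 157, 160 and 168 in S181E and 174, 187 and 173 in Y396E, and 204 in the parental library. The mutant libraries lay above WT in control cells. In arsenite the WT libraries had 188, 187 and 188 CPM, S181E 158, 163 and 168, and Y396E 162, 170 and 195. All but the last of these mutant libraries, the Y396E library that stood apart, lay below WT.

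The other escaping members lay at or slightly below WT. RAD21 had 235, 210 and 219 CPM in WT control, 196, 203 and 202 in S181E and 191, 197 and 189 in Y396E. ATAD2, a bromodomain ATPase, had 50.3, 44.9 and 51.4 CPM in WT, 45.2, 46.6 and 41.0 in S181E and 40.1, 44.7 and 42.8 in Y396E. The ATAD2 libraries of S181E and WT overlapped, and those of RAD21 did not. MTBP, a partner of replication origin firing, had 8.59, 8.16 and 9.36 CPM in WT, 8.68, 9.40 and 8.98 in S181E and 9.20, 9.39 and 7.84 in Y396E, with full overlap. JPH1, a junctophilin, had a mean log2 change of -0.02, which was 0.12 when libraries were scaled by their totals alone.

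The single parental control library, used in place of WT, gave another set of escaping members. Against it 165 members followed and 13 escaped, where 12.5% of all tested genes met the rule for following. Of the 16 members that escaped against WT, 9 followed against the parental library and 5 escaped. STK3, a kinase of the Hippo pathway, had a mean log2 change of -0.16 against WT and -0.47 against the parental library. For RAD21 the values were -0.17 and -0.48, for KHDRBS3 0.42 and -0.76, and for TMEM65 0.57 and -0.02. The parental library held higher levels of most escaping members than WT, with a median log2 difference of 0.31, against -0.01 for the following members. The classes use the WT control values, so some rise of escaping members above WT would follow from that choice alone. In the parental library 165 members in control (88.7%) and 168 in arsenite (90.3%) lay nearer to WT than to the mutants, as did 48.5% and 55.1% of genes off chromosome 8.

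**Figure D3:**
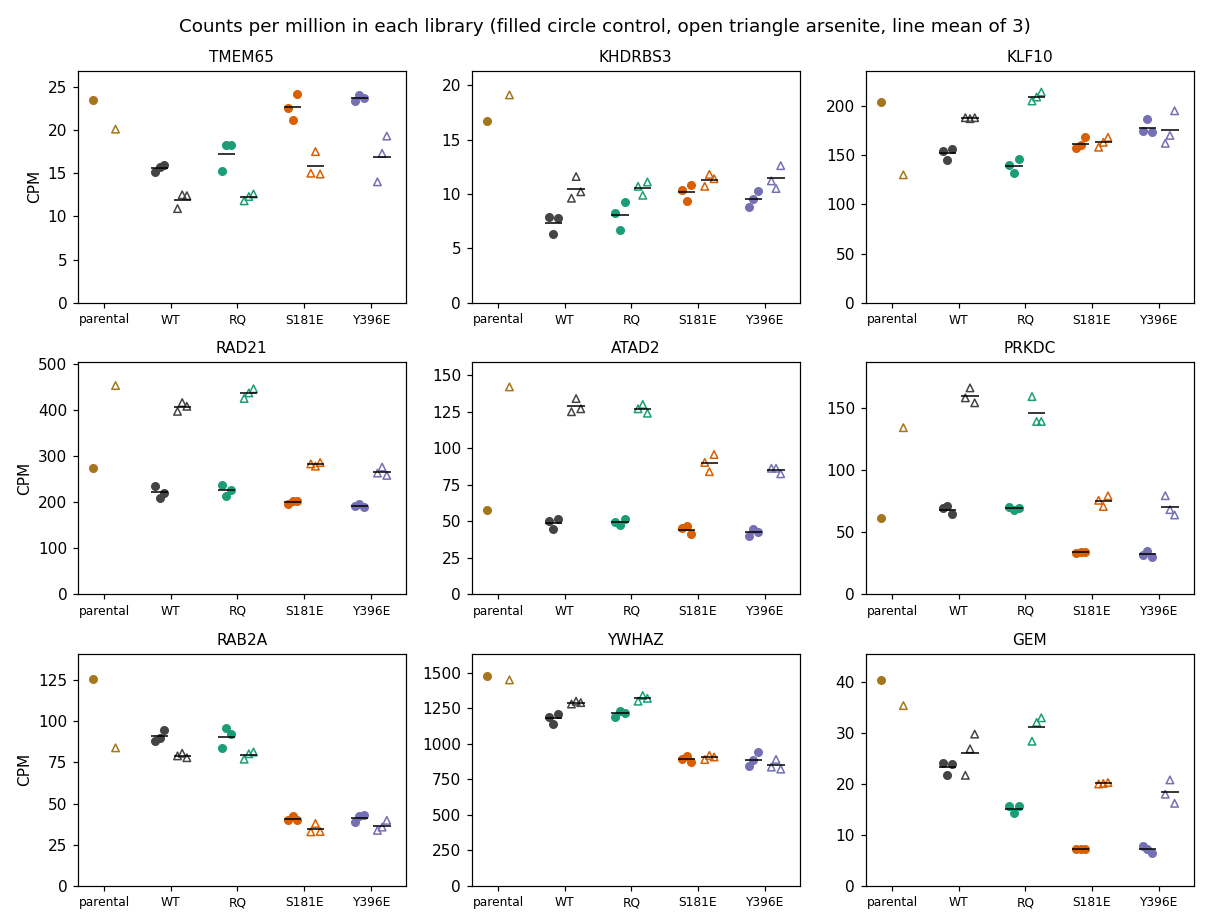
CPM (vertical axes, from 0) of 9 members in the parental, WT, RQ, S181E and Y396E libraries, with filled circles for control, open triangles for arsenite and lines for the mean of 3 libraries. TMEM65 and KHDRBS3 stand above WT in the mutants in control cells, RAD21 and ATAD2 near WT in control and below it in arsenite, and PRKDC, RAB2A and YWHAZ below WT in both treatments.

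At the other end, the members with the lowest mean change in control cells were GEM, NIPAL2, TMEM68, OPLAH, CEBPD, RB1CC1, IQANK1 and UBXN2B. GEM, a small GTPase of the immediate-early kind, had 24.1, 21.8 and 24 CPM in WT control, 7.31, 7.31 and 7.20 in S181E and 7.79, 7.20 and 6.47 in Y396E. The log2 change in S181E was -1.68 ± 0.11 in control and -0.38 ± 0.10 in arsenite, and for Y396E it was -1.71 ± 0.11 and -0.51 ± 0.10. NIPAL2, of a family of magnesium transporters, had 18.1, 20.8 and 18.6 CPM in WT control against 6.6, 6.19 and 6.61 in S181E and 7.11, 7.33 and 7.22 in Y396E. It passed the level cut through WT and RQ libraries alone, so the cut favoured high WT values and with them its low rank. OPLAH, 5-oxoprolinase of the glutathione cycle, had log2 changes of -1.43 and -1.26 in control and -1.17 and -1.21 in arsenite.

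The 5 members with the highest CPM differed in how far they were lowered. YWHAZ had 1190, 1140 and 1210 CPM in WT control, 892, 917 and 874 in S181E and 844, 883 and 941 in Y396E, without overlap, and 1480 in the parental library. The log2 changes of S181E and Y396E were -0.40 ± 0.04 and -0.41 ± 0.04. ASPH, an aspartate hydroxylase of the endoplasmic reticulum, lay in the near segment with log2 changes of -0.81 ± 0.05 and -0.76 ± 0.05. LAPTM4B, a lysosomal membrane protein, had -0.89 ± 0.06 and -0.90 ± 0.06, and LY6E, a GPI-anchored surface protein, had -0.80 ± 0.07 and -0.79 ± 0.07. PDP1, the phosphatase that activates pyruvate dehydrogenase, escaped in control cells with -0.20 ± 0.04 and -0.21 ± 0.04, and followed in arsenite with -0.43 ± 0.04 and -0.48 ± 0.04.

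Measured from the median of their own segment, 6 members (3.23%) lay more than a fold of 1.2 above it in both mutants and both treatments. They were TMEM65, KHDRBS3, KLF10, PTDSS1, LRRCC1 and ASAP1. The 8 members that far below it in all cases (4.3%) were CEBPD, PTP4A3, RB1CC1, NAPRT, RHPN1, IQANK1, OPLAH and NIPAL2. Of these, NIPAL2 had passed the level cut through WT and RQ libraries alone. Of the genes off chromosome 8, 2.29% lay that far above and 3.05% that far below their median. Without Y396E arsenite replicate 3, 3 members lay that far above (TMEM65, KHDRBS3 and KLF10), beside 2.51% of genes off chromosome 8. Then 10 lay that far below, beside 3.33%, which left out CEBPD and PTP4A3 and took in UBXN2B, GRHL2, FZD6 and LRATD2. The spread of members around the median of their segment, an SD of 0.30 in S181E control and 0.24 in S181E arsenite, stood beside 0.29 and 0.21 for genes off chromosome 8. The comparisons of S181E and Y396E share their WT libraries.

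Most members that escaped in control cells did not escape in arsenite. They were picked by their control values, so some move toward the median of the members would follow from that choice alone. Of the 16 members that escaped in control, 11 followed in arsenite, 3 escaped (TMEM65, KHDRBS3 and KLF10) and 2 were mixed (LRRCC1 and ASAP1). Of the 164 that followed in control, 152 followed in arsenite, 5 escaped (ARC, PLEC, TRIQK, PTDSS1 and NSMCE2) and 7 were mixed. Without Y396E arsenite replicate 3, 157 followed, 5 escaped and 2 were mixed, since ZNF704, GPAA1, DGAT1, SLC52A2 and MFSD3 then followed. Across members, the change in S181E control and that in Y396E arsenite, which share no library, had Pearson's r = 0.56 and Spearman's rho = 0.49 (186 genes), and 0.45 and 0.32 over genes off chromosome 8.

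**Figure D4:**
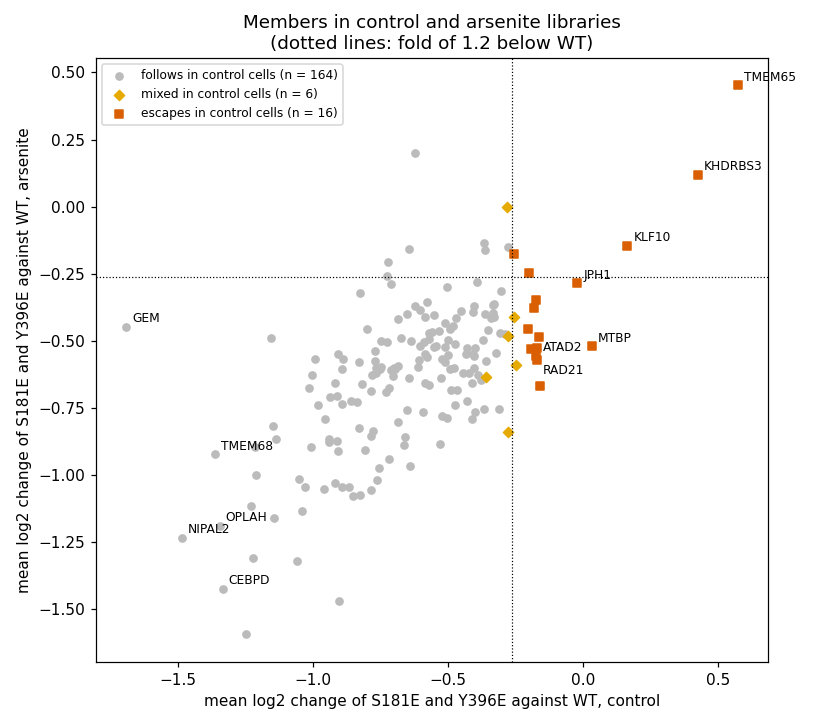
Mean log2 change of S181E and Y396E against WT in control cells (horizontal axis) and in arsenite (vertical axis) for each of the 186 members, marked by their class in control cells, with dotted lines at a fold of 1.2 below WT. TMEM65, KHDRBS3 and KLF10 stand above both lines, while MTBP, RAD21, ATAD2 and most other escaping members fall below the line for arsenite.

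RQ cells held the members at the WT level. The median log2 change of RQ against WT was 0.02 in control and 0.02 in arsenite. By edgeR's quasi-likelihood fit, adjusted after Benjamini and Hochberg over all 9099 genes, 3 members were higher and 2 lower in control, where 1.0% of all genes were higher, 0.429% lower and 1.43% either. In arsenite 4 were higher and 0 lower, where the shares were 1.36%, 0.154% and 1.52%. At an unadjusted p under 0.05 there were 29 and 30 members, 15.6% and 16.1% of them, beside 14.1% and 11.2% of all tested genes. DESeq2 called 7 and 5, beside 1.96% and 1.81% of all genes.

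The change with the smallest adjusted p in RQ was that of LRATD2 in arsenite, at 27.7, 31.8 and 33.2 CPM in WT and 49.5, 50.4 and 60.1 in RQ. All RQ libraries lay above WT, and the log2 change was 0.79 ± 0.09 (adjusted p = 2.58e-06 in edgeR). GEM was lower in RQ control, at 15.6, 14.3 and 15.6 CPM against 24.1, 21.8 and 24 in WT, with a log2 change of -0.62 ± 0.10 (adjusted p = 0.00116). TRIQK was higher in RQ arsenite by 0.43 ± 0.08 (adjusted p = 0.00266). These calls were made whichever library was left out.

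The other RQ calls depended on single libraries. In control cells RBM12B (0.35 ± 0.07, adjusted p = 0.00623), the cytoskeletal linker PLEC (0.31 ± 0.07, adjusted p = 0.0117) and MAL2 (0.28 ± 0.07, adjusted p = 0.0211) were higher, and the Integrator subunit INTS8 (-0.27 ± 0.06, adjusted p = 0.017) was lower. Without RQ control replicate 2 none of these passed, and 1 member was called in all, with 2 called without WT control replicate 1 and 3 without WT control replicate 3. In arsenite the Mediator subunit MED30 (0.29 ± 0.07, adjusted p = 0.0353) was called in all but 5 and ARC (0.28 ± 0.07, adjusted p = 0.0468) in all but 15 of the 24 fits that left out 1 library. Both were lost without RQ arsenite replicate 3 or any of the 3 WT arsenite libraries, which left 2 members called.

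S181E and Y396E did not differ in any member past the threshold. In edgeR 0 members were called between Y396E and S181E in control and 0 in arsenite, where 0.0% of all genes passed, and DESeq2 called 0 in each, beside 0.011% and 0.0989% of all genes. At an unadjusted p under 0.05 there were 6 members in control (3.23%, beside 3.18% of all genes) and 35 in arsenite (18.8%, beside 15.1%). Log2 differences of Y396E from S181E ranged from -0.24 to 0.18 in control and from -0.45 to 0.68 in arsenite, the latter from -0.24 to 0.26 without Y396E arsenite replicate 3. Without Y396E arsenite replicate 2, which leaves replicate 3 with 1 other library, 16 members were called in arsenite.

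The members answered arsenite in both directions. In WT cells 61 members rose and 71 fell in edgeR's test, 132 in all, where 36.3% of all genes rose, 35.9% fell and 72.2% passed in either direction. In S181E 54 rose and 63 fell (32.0%, 33.3% and 65.3% of all genes), in Y396E 56 and 64 (32.9%, 32.9% and 65.8%) and in RQ 60 and 67 (37.1%, 35.8% and 72.9%). Rises made up 46.2% of the calls in WT and 47.2% in RQ, and 61.1% and 62.0% when libraries were scaled by totals alone.

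The highest responses in WT were those of OSR2, RAD54B, ARC, MTBP, POP1, CPNE3, RHPN1 and OPLAH. OSR2, RAD54B and MTBP passed the level cut through arsenite libraries alone, so the cut favoured high responses in them and their values are given as a description. ARC rose by 1.95 ± 0.08 on the log2 scale (adjusted p = 1.14e-16 in edgeR) and CPNE3 by 1.51 ± 0.07. RAD54B, a helicase of homologous recombination, had a response of 1.96 ± 0.09. OSR2, a zinc finger transcription factor, had 5.43, 6.08 and 6.69 CPM in WT control and 25.3, 23.7 and 23.1 in arsenite. Its response was 1.99 ± 0.15 in WT and 2.04 ± 0.16 in S181E, where it was at a lower level in both treatments. PRKDC rose by 1.23 ± 0.07 in WT, 1.14 ± 0.07 in S181E and 1.13 ± 0.07 in Y396E.

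The falls in WT were led by TRIB1, CEBPD, MAL2, BPNT2, ZNF706, CHRAC1, LRATD2 and LY6E. TRIB1, a pseudokinase that brings substrates to the COP1 ubiquitin ligase, had 422, 373 and 425 CPM in WT control and 60.2, 61.0 and 60.3 in arsenite. It fell by 2.75 ± 0.05 on the log2 scale in WT (adjusted p = 3.45e-23 in edgeR) and by 2.86 ± 0.05 in RQ. CEBPD fell by 1.34 ± 0.14 in WT and 1.25 ± 0.16 in S181E. MAL2, of apical transport, fell by 1.2 ± 0.07, BPNT2, a phosphatase of the Golgi, by 1.19 ± 0.06, and ZNF706 by 1.09 ± 0.06.

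The interaction term asked whether the response to arsenite differed from that of WT. In S181E 12 members were called with a higher and 19 with a lower value, where 6.98% of all genes were higher, 9.41% lower and 16.4% either, and in Y396E 18 and 20, where the shares were 10.3%, 11.1% and 21.5%. The calls took 16.7% of members in S181E and 20.4% in Y396E, near the shares of all genes. Off chromosome 8 the interquartile range of the arsenite response was 1.00 in WT, 0.80 in S181E and 0.81 in Y396E. The medians of the interaction over members were -0.01 and -0.01, beside -0.03 and -0.02 for genes off chromosome 8. Without WT control replicate 2, 19 members were called in S181E and 23 in Y396E. In the fit of all 24 libraries, higher values made up 38.7% of the calls in S181E and 47.4% in Y396E. With libraries scaled by totals alone, these shares were 17.1% and 20.4%.

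GEM had the largest difference. It went from 24.1, 21.8 and 24 CPM in WT control to 21.7, 26.9 and 29.8 in arsenite, and from 7.31, 7.31 and 7.20 in S181E control to 20.0, 20.1 and 20.3 in arsenite. The S181E libraries rose by 1.47 ± 0.11 on the log2 scale, while the WT value was 0.17 ± 0.10, and the difference between the responses was 1.30 ± 0.15 (adjusted p = 4.52e-06 in edgeR). In Y396E the difference was 1.19 ± 0.15 (adjusted p = 1.26e-05). In RQ it was 0.87 ± 0.15 (adjusted p = 0.0039), the 1 RQ interaction called among the members, where 0.22% of all genes passed. With the replicate number as a block 2 members were called for RQ. There were 2 without replicate 3 of RQ, S181E or WT control or replicate 2 of Y396E arsenite, and 5 without Y396E arsenite replicate 3.

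ARC, a cytoskeleton-associated product of an immediate-early gene, had 14.8, 12.9 and 13.9 CPM in WT control and 9.60, 8.62 and 8.39 in S181E control. In arsenite the WT libraries had 54.9, 50.4 and 56.1 CPM and S181E 64.9, 57.8 and 58.9. The S181E libraries lay below WT in control and above WT in arsenite, and the interaction was 0.82 ± 0.12 in S181E (adjusted p = 8.29e-05 in edgeR) and 0.83 ± 0.12 in Y396E (adjusted p = 4.63e-05). TRIB1 had 184, 190 and 177 CPM in S181E control and 45.3, 44.3 and 45.6 in arsenite, so that the fall of 2.03 ± 0.05 was smaller than in WT by 0.72 ± 0.07 (adjusted p = 8.24e-07). PLEC rose by 0.97 ± 0.07 in S181E and 0.40 ± 0.07 in WT, with an interaction of 0.56 ± 0.09 (adjusted p = 0.000383).

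Several members with a lower interaction rose in WT and rose less in the mutants. RAD21 went from 235, 210 and 219 CPM to 397, 416 and 408 in WT, and from 196, 203 and 202 to 283, 278 and 286 in S181E. Its interaction was -0.38 ± 0.06 in S181E (adjusted p = 0.000336 in edgeR) and -0.41 ± 0.06 in Y396E (adjusted p = 0.000106). ATAD2 reached 125, 134 and 127 CPM in WT arsenite and 90.3, 84.0 and 95.7 in S181E, with interactions of -0.37 ± 0.09 and -0.39 ± 0.09 (adjusted p = 0.00531 and 0.00251). STK3 reached 49.4, 46.7 and 47.3 CPM in WT arsenite and 29.7, 30.4 and 29.7 in S181E, with interactions of -0.49 ± 0.10 and -0.52 ± 0.10 (adjusted p = 0.00187 and 0.000822). In each of these genes the mutant libraries lay below WT in arsenite without overlap.

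CPNE3, a calcium-dependent phospholipid-binding protein, went from 56.3, 47.9 and 58.8 CPM to 154, 158 and 155 in WT and from 44.1, 44.3 and 42.9 to 87.4, 92.7 and 92.9 in S181E. Its interaction was -0.46 ± 0.10 in S181E (adjusted p = 0.00363 in edgeR) and -0.43 ± 0.10 in Y396E (adjusted p = 0.00377). ESRP1, the epithelial splicing regulator, had -0.37 ± 0.07 and -0.36 ± 0.07 (adjusted p = 0.00156 and 0.00134). KLF10 rose in WT by 0.30 ± 0.06 and had 0.01 ± 0.06 in S181E and -0.02 ± 0.05 in Y396E. The classes of escape and the interaction use the same WT, S181E and Y396E control libraries, so they are not independent.

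The arsenite response in RQ, whose libraries did not enter the classes, is given beside them. RQ and WT control libraries of the same number deviated together (r = 0.291, 0.525 and 0.472), and WT control entered the classes. The response in RQ and the classes are thus not fully independent. The escaping members had a median log2 response in RQ of 0.49, with 10 called higher and 3 lower of 16, and the following members -0.13, with 46 higher and 63 lower of 164, where 37.1% of all genes were higher and 35.8% lower. MTBP among the escaping members and RAD54B, OSR2, GRHL2 and ZNF251 among the following ones passed the level cut through arsenite libraries alone. The cut favoured high responses in these genes. Over all members, the mean change in control cells and the response in RQ had Pearson's r = 0.26, and over genes off chromosome 8 it was 0.40.

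**Figure D5:**
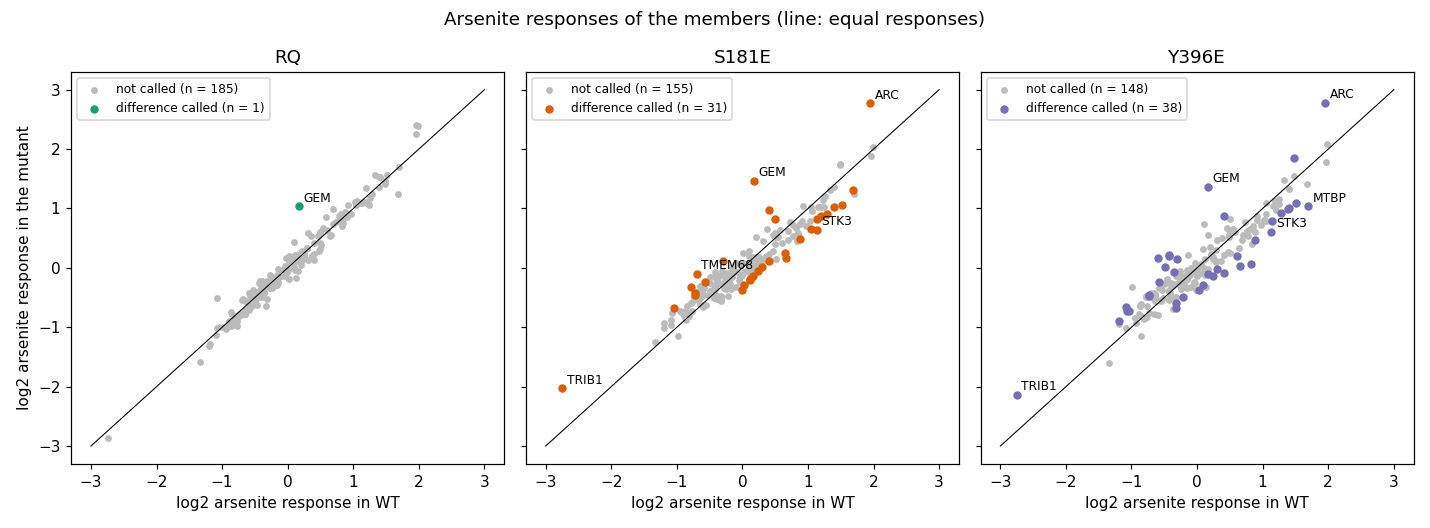
Log2 response to arsenite in WT (horizontal axes) and in RQ, S181E or Y396E (vertical axes) for each of the 186 members, with the line of equal responses. Coloured points are members whose response differed from WT in edgeR, 1 in RQ, 31 in S181E and 38 in Y396E; GEM stands above the line in each panel, and ARC and TRIB1 in those of S181E and Y396E.

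The members were also read by function, in lists put together with earlier results of these libraries known. Their WT arsenite calls stand beside 36.3% of all genes higher and 35.9% lower. Genes of genome maintenance and the cell cycle held the most escaping members, with 5 of 16 (CCNE2, RAD21, DSCC1, MTBP and ATAD2), beside 8.6% of all members, and 10 following. Their medians were -0.37 (control) and -0.54 (arsenite), and 15 of 16 followed in arsenite. In WT cells 10 of the 16 rose with arsenite and 3 fell. RAD54B and MTBP, which are among those that rose, passed the level cut through arsenite libraries alone. Against the single parental control library the mean log2 changes of CCNE2, RAD21, DSCC1 and ATAD2 were -0.50, -0.48, -0.52 and -0.40, and that of MTBP was 0.26. Among those that followed were UBE2V2, a ubiquitin-conjugating enzyme variant of DNA damage tolerance (-0.94 and -0.88 in S181E and Y396E control), and the helicase RECQL4 (-0.51 and -0.60).

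Of the 35 listed genes of transcription and chromatin 21 were members, of which 19 followed and 2 escaped, KLF10 and ATAD2, with medians of -0.68 in control and -0.58 in arsenite. HSF1 had log2 changes of -0.63 ± 0.05 in S181E and -0.58 ± 0.05 in Y396E control, and MAF1, a repressor of RNA polymerase III, -0.62 ± 0.06 and -0.60 ± 0.06. In WT arsenite 8 of the 21 rose and 6 fell, and GRHL2 and ZNF251 passed the level cut through arsenite libraries alone. Of 15 listed genes of RNA processing and decay 14 were members, 12 following and 1 escaping (KHDRBS3), with medians of -0.40 and -0.55. The splicing factor PUF60 had -0.29 ± 0.05 in S181E and in Y396E control, and -0.46 and -0.49 with arsenite, and AGO2, the slicer of RNA interference, -0.46 ± 0.06 and -0.58 ± 0.06.

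The genes of ubiquitin and protein turnover held 14 members of 15 listed, of which 13 followed and 0 escaped, with medians of -0.68 and -0.61. ELOC, an elongin of cullin ligases, had -0.54 ± 0.07 and -0.58 ± 0.07, and DERL1, of the degradation of proteins from the endoplasmic reticulum, -0.78 ± 0.06 and -0.76 ± 0.06. With arsenite 3 of the 14 rose and 9 fell in WT. Of the 18 genes of vesicle traffic and the lysosome 17 were members, 16 following and 1 escaping (ASAP1), with medians of -0.65 and -0.60. TRAM1, of protein translocation, had -0.91 ± 0.06 and -0.92 ± 0.06.

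Of 12 mitochondrial genes 11 were members, 9 following and 2 escaping (PDP1 and GDAP1), with medians of -0.52 and -0.63. CYC1, cytochrome c1, had 483 ± 16.3 CPM in WT control, 329 ± 1.74 in S181E and 331 ± 11.4 in Y396E. Of 21 genes of signalling and growth control 12 were members, 10 following and 1 escaping (STK3), with medians of -0.76 and -0.59. MTDH had -0.69 ± 0.06 and -0.84 ± 0.06, while SCRIB, of cell polarity, had -0.24 ± 0.07 and -0.27 ± 0.07. Of 16 genes of lipid and small-molecule metabolism 14 were members and all 14 followed, with medians of -0.61 and -0.64, from the thioesterase LYPLA1 (-1.0 ± 0.07 and -1.05 ± 0.07) to the phosphatidylserine synthase PTDSS1 (-0.27 ± 0.06 and -0.29 ± 0.06).

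Of the 11 immediate-early and stress-inducible genes 9 were members, 8 following and 1 escaping (KLF10). Their median was -0.75 in control cells and -0.49 in arsenite. In WT arsenite 3 of them rose and 3 fell, and the interaction was called higher in 3 and lower in 1 of the 9 in S181E (6.98% and 9.41% of all genes) and in Y396E (10.3% and 11.1%). SDCBP, a syntenin of exosome biogenesis, had -0.78 ± 0.06 and -0.87 ± 0.06 in control and rose in WT arsenite by 0.78 ± 0.05. The lists overlap, and their genes were chosen with earlier results of these libraries known.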

How the data were processed

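The authors trimmed the reads, aligned them to hg38 with STAR 2.7.11b and counted reads per gene with featureCounts (Subread 2.0.6), per the labels. Per the file headers, counting used strand setting 2 and GENCODE release 46, so that antisense genes were kept apart. The deposited files give raw whole counts for each gene. The files listed 63086 genes, of which 62541 (99.1%) matched GENCODE release 44, the source of symbols and biotypes here. The other identifiers took no more than 0.0356% of any library, and no library pair held identical counts.

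TMM factors (trimmed mean of M-values), which lay between 0.865 and 1.086, scaled the libraries. Genes were tested in edgeR 4.0.16 under R 4.3.3 with glmQLFit and glmQLFTest, in 1 fit of the 24 libraries with a transgene with 1 mean per group and 16 residual degrees of freedom, after the study's choice of test, level cut and fold. The Benjamini-Hochberg adjustment ran over 9099 genes, and a gene was called at an adjusted p under 0.05 and a fold above 1.2. Errors of log2 changes (SE) are the log2 change over the root of F. CPM are on TMM-scaled totals, and medians per library used a prior count of 2. The parental libraries, 1 per treatment, did not enter it. The biological coefficient of variation between dishes was 0.0682, and counting error adds to it for members of low CPM.

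The members, gene lists and rules were chosen with earlier results of these data known. Named genes are the first members and the 4 tested genes before them, the 12 highest and 8 lowest changes in control cells, the 5 highest CPM, the largest called changes of each comparison that the choice of members did not use, and up to 4 genes per list. Others were named after their values were seen. RQ and WT libraries of the same number deviated together (r = 0.291, 0.525 and 0.472 in control and 0.148, 0.147 and 0.15 in arsenite). For S181E and WT control r was 0.014, 0.239 and 0.309, and for Y396E and WT control -0.043, 0.05 and 0.421. The main fit held no term for the replicate number, so the printed p-values are unpaired. Alternatives were DESeq2 1.42.0, its size factors, totals only, TMM without chromosome 8, other filters, gene types, thresholds and groups, a replicate block, each library left out, and, added later, the parental library as reference and a cut from the median of the own segment. The RNA immunoprecipitation libraries were not analysed here.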

Additional observations from a re-analysis of the deposited data

Results flagged for a closer look

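For 16 values the response of a member to arsenite differed between a mutant and WT by the interaction term of edgeR's quasi-likelihood fit in S181E or Y396E, and for 1 value in RQ, with Benjamini-Hochberg adjustment over all genes. These are the 4 largest called differences in each direction per mutant. In S181E the response was higher than in WT by 1.30 for GEM (adjusted p = 4.52e-06), 0.82 for ARC (8.29e-05), 0.72 for TRIB1 (8.24e-07) and 0.60 for TMEM68 (0.0176). It was lower for STK3 by -0.49 (0.00187), for SYBU by -0.49 (0.037), for CPNE3 by -0.46 (0.00363) and for ATP6V1H, a subunit of the vacuolar proton pump, by -0.39 (0.019).

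In Y396E the response was higher by 1.19 for GEM (adjusted p = 1.26e-05 in edgeR), 0.83 for ARC (4.63e-05), 0.77 for MFSD3 (0.0111) and 0.65 for GPAA1, of the attachment of GPI anchors (0.00877). It was lower for CHD7, a chromatin remodeler, by -0.76 (0.0321), for MTBP by -0.66 (0.00829), for SYBU by -0.63 (0.00749) and for STK3 by -0.52 (0.000822). In RQ the value was 0.87 for GEM (0.0039).

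Of these, MFSD3, GPAA1 and CHD7 rested in part on Y396E arsenite replicate 3, which had 63.3 CPM of MFSD3 against 34.0 and 31.7 in the other Y396E arsenite libraries, 83.0 CPM of GPAA1 against 54.8 and 47.5, and 4.08 CPM of CHD7 against 9.37 and 9.14. Without it the differences were 0.38, 0.38 and -0.45, each still called. MTBP and SYBU in Y396E rested in part on the same library. It had 14.2 CPM of MTBP against 20.2 and 19.8 in the other Y396E arsenite libraries, and 9.99 CPM of SYBU against 16.8 and 15.3. Without that library their differences were -0.50 and -0.44, both still called. The call of SYBU in S181E was lost in 10 of the 24 fits that left out 1 library, that of CHD7 in 6, that of TMEM68 without S181E control replicate 3 or WT control replicate 2, and that of ATP6V1H without WT control replicate 2.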

How the results depend on the processing

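No called value changed its direction under another setting. With DESeq2 the RQ interaction had 3 calls and the median in S181E arsenite was -0.55, as it was with its size factors in edgeR (-0.55). TMM factors without chromosome 8 gave control medians of -0.63 and -0.61 in S181E and Y396E, all gene types -0.61 in S181E, and no filter -0.60 in S181E with 2 calls for RQ arsenite. Scaling by totals alone, under which the median of genes off chromosome 8 moved to 0.18 in S181E and 0.15 in Y396E control, gave medians of -0.45 and -0.46 in control and -0.52 in S181E arsenite, 38 escaping members, and 3 and 2 calls for RQ in control and arsenite. Of those in RQ control 33.3% were higher, beside 60.0%. With only the groups compared, the control medians were -0.63 and -0.61, and 2 members were called for RQ control, 18 for the Y396E interaction, which lost MFSD3, GPAA1, CHD7 and SYBU, and 3 for the RQ interaction.

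At a fold of 1.5 the calls were 100 and 91 in S181E control and arsenite, 94 and 101 in Y396E, 1 and 1 in RQ, 79, 62, 66 and 80 for arsenite in WT, S181E, Y396E and RQ, and 4 and 9 for the S181E and Y396E interactions. A cut at a fold of 1.1 left 5 escaping members, and a cut around the median of the members gave 101 within it and 25 above it. Around the median of the own segment, a cut added after the data were seen, 135 members lay within and 20 above. The replicate block changed 1 count, the RQ interaction with 2 calls, and no other call count past 1.5 times.

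Leaving out 1 library gave 164 to 169 calls in S181E control, 170 to 176 in S181E arsenite, 166 to 171 in Y396E control, 158 to 176 in Y396E arsenite, 1 to 7 and 2 to 4 in RQ control and arsenite, 128 to 134, 111 to 118, 113 to 127 and 122 to 131 for arsenite in WT, S181E, Y396E and RQ, 19 to 42, 23 to 50 and 1 to 5 for the interactions of S181E, Y396E and RQ, 0 to 16 between Y396E and S181E in arsenite, 160 to 165 following and 14 to 17 escaping members. The medians ranged from -0.62 to -0.60 in S181E control, -0.61 to -0.58 in Y396E control, -0.59 to -0.56 in S181E arsenite and -0.63 to -0.59 in Y396E arsenite. The interaction calls of LAPTM4B, LY6E and GRINA were lost with totals alone. The causes were not tested.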
